A study of Mus musculus with 8 samples.

Results

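The genes described here are Fcer1g, Fcgr1, Fcgr2b, Fcgr3, Fcgr4 and Fcgrt, the mouse receptors for the constant (Fc) part of immunoglobulin G (IgG) together with the common gamma chain. They are 6 of the 19505 genes measured, and each was read by 1 probe set. The members were listed by name, with results of the same arrays already known in which Fcer1g and Fcgr4 were low after treatment. Probe sets were to be chosen by the highest mean level over all arrays, the only measured value in the rule, which decided nothing here. The mice were BALB/c recipients with acute graft-versus-host disease, an attack on the host's organs by T cells that came with the transplant. All of them, whichever treatment they had, had received lethal irradiation and then bone marrow and T cells from C57BL/6 donors on day 0. The first group took 1.2 mg/kg of hBD-2 (human beta-defensin 2, an antimicrobial peptide of epithelial cells) by mouth from day 0 to day 7, and the second took PBS over the same days. There were 4 mice in each group. Whole colon was taken on day 7 and put on 1 array per mouse, so donor cells and surviving recipient cells were read together, and fewer cells of a type cannot be told apart from less RNA per cell. Age and sex of the mice are not given in the sources used here.

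Fc gamma receptors let phagocytes and other leukocytes sense IgG bound to antigen. The activating receptors of the mouse, encoded by Fcgr1, Fcgr3 and Fcgr4, cannot signal alone. They pair with the common gamma chain encoded by Fcer1g, whose immunoreceptor tyrosine-based activation motif (ITAM) recruits the kinase Syk. Fcgr2b encodes the only inhibitory receptor of the group, which carries an inhibitory motif (ITIM) in its own tail and recruits the phosphatase encoded by Inpp5d. Fcgrt encodes the neonatal Fc receptor (FcRn). It is built like an MHC class I chain, pairs with beta-2-microglobulin, and carries IgG and albumin through cells rather than signalling. In the gut these receptors are found mainly on macrophages and other myeloid cells, while FcRn is also made by endothelial cells.

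The 150 bases before an annotated start site are shown for the 3 members whose promoter window held a motif of myeloid or interferon-gamma control, and for Fcer1g, the member with the smallest p-value. They come from RefSeq on the assembly GRCm38.p6, written 5′ to 3′ on the strand of the gene, and all 6 members had a window. The search covered 250 bases before to 50 bases after each start, on both strands, for GAGGAA, a core of sites for the transcription factor PU.1, which reads as TTCCTC when it lies on the opposite strand. The gamma-activated sequence was searched for as TTCNNNGAA, which has the same form on either strand. Capitals mark the matches. They are descriptions of letters, not of bound sites.
Fcgr4, chr1:171018776-171018925, plus strand: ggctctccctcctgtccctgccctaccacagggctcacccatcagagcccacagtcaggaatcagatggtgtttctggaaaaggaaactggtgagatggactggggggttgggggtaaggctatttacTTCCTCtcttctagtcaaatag
Fcgr3, chr1:171059404-171059553, minus strand: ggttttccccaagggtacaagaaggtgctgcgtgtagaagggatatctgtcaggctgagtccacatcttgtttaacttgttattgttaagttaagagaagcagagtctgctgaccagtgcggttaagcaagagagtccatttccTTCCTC
Fcgr1, chr3:96293970-96294119, minus strand: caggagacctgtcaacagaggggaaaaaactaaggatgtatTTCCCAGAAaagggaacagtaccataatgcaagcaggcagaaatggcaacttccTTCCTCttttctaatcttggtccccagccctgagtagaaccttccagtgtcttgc
Fcer1g, chr1:171234350-171234499, minus strand: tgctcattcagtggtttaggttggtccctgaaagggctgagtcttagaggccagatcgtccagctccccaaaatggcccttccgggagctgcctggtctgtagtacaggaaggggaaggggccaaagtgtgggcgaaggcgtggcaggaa
The letters TTCCTC stood 22 bases before the start of Fcgr4, 55 before that of Fcgr1 and 6 or 15 before the 2 starts of Fcgr3. Fcer1g, Fcgr2b and Fcgrt held none in their windows, and no other form of the motif was searched for. Of all 32851 promoter windows of this length, 28.3% held GAGGAA on either strand and 8.3% held TTCNNNGAA, which among the members was found in Fcgr1 alone. Human FCGR1A is known for an interferon-gamma response element upstream of its start.

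Medians of the 8 arrays were all within 6.77 to 6.82 log2 units, which the normalization of the deposited values largely fixes in advance. Precision is limited by the small number of arrays. Mice hBD-2 1 and hBD-2 3 were set off from all others, at 25.2 and 25.4 on the first principal component (34.6% of the variance), against -14.9 to -2.45 for the remaining 6. Their mean over 9 posterior colon genes, relative to each gene's mean, was 1.14 and 0.88, against -0.47 to -0.16 in the others. Each member is therefore given with and without these 2 mice. Colon markers were high on every array, with Muc2, the main mucin of colonic mucus, at 12.9 log2 units on average in either group. All differences below are log2 units, hBD-2 minus PBS, with moderated standard errors (SE) from limma fitted across all genes.

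Expression of Fcer1g, the shared signalling chain, was lower in the hBD-2 mice. It stood at 7.39, 7.44, 7.25 and 7.59 log2 units in hBD-2 mice 1 to 4, against 8.21, 8.48, 8.10 and 8.12 in PBS mice 1 to 4. Every hBD-2 mouse lay below every PBS mouse, and the gap between the highest of the first and the lowest of the second, 0.51, was wider than the spread within either group. The means were 7.42 ± 0.14 in hBD-2 mice and 8.23 ± 0.17 in PBS mice (SD, n = 4 each). Fcer1g fell by 0.81 (SE 0.10, 95% interval -1.04 to -0.58), which is 1.75-fold, with an adjusted p of 0.0467 by limma. It was the only member that passed. Across all genes 8 passed as lower, which is 0.041% of those tested, and 0 as higher (0%). At an unadjusted p under 0.05, limma had 1167 genes lower and 1142 higher.

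The call for Fcer1g lay close to the threshold. With single arrays left out its adjusted p in limma ran from 0.0453 to 0.176. It held without hBD-2 4 and ended without PBS 1, PBS 2, PBS 3, PBS 4, hBD-2 1, hBD-2 2 or hBD-2 3, while the difference stayed between -0.86 and -0.72. When hBD-2 1 and hBD-2 3 were both left out it was -0.71 (SE 0.13, limma adjusted p = 0.129).

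**Figure D1:**
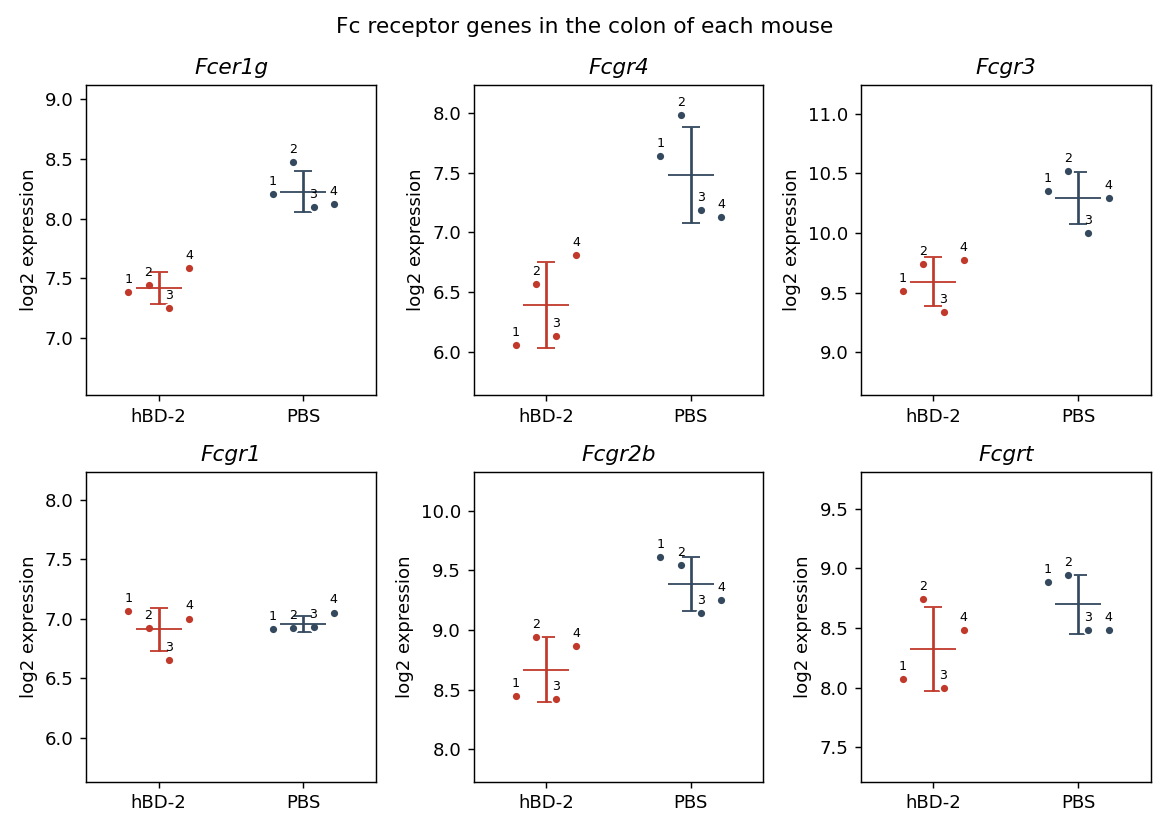
Log2 expression of the 6 genes in each mouse (points, numbered by mouse) with the group mean and SD (horizontal line and bars, n = 4 each), hBD-2 on the left and PBS on the right; every panel spans the same number of log2 units. In Fcer1g, Fcgr4, Fcgr3 and Fcgr2b the hBD-2 points are all under the lowest PBS point, whereas in Fcgr1 and Fcgrt the groups overlap.

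Among the activating receptors, Fcgr4 had the largest difference. Fcgr4 encodes a receptor of monocytes, macrophages and neutrophils that binds IgG2a and IgG2b. It stood at 6.06, 6.57, 6.13 and 6.81 log2 units in hBD-2 mice 1 to 4, against 7.64, 7.98, 7.19 and 7.13 in PBS mice 1 to 4. The groups did not overlap, but they were spread widely, with hBD-2 4 only 0.32 below PBS 4. The means were 6.39 ± 0.36 in hBD-2 mice and 7.48 ± 0.40 in PBS mice (SD, n = 4 each), a difference of -1.09 (SE 0.22, 95% interval -1.57 to -0.61). Only 4 of all genes had a more negative difference. Fcgr4 did not pass (adjusted p = 0.107 by limma), and it was at -0.80 (SE 0.23) in the remaining 6 mice when hBD-2 1 and hBD-2 3 were left out.

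Fcgr3 encodes a low-affinity activating receptor found on macrophages, neutrophils, mast cells and natural killer cells. It stood at 9.517, 9.737, 9.340 and 9.777 log2 units in hBD-2 mice 1 to 4, against 10.355, 10.518, 10.001 and 10.298 in PBS mice 1 to 4. The highest hBD-2 mouse lay 0.22 below the lowest PBS mouse. With means of 9.59 ± 0.20 in hBD-2 mice and 10.3 ± 0.22 in PBS mice (SD, n = 4 each), the difference was -0.70 (SE 0.13), which did not pass (adjusted p = 0.0874 by limma). Leaving out hBD-2 1 and hBD-2 3 gave -0.54 (SE 0.14).

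Fcgr1, which encodes the high-affinity IgG receptor and is known to be induced by interferon-gamma, showed no such difference. It stood at 7.07, 6.92, 6.66 and 7.00 log2 units in hBD-2 mice 1 to 4, against 6.91, 6.93, 6.93 and 7.05 in PBS mice 1 to 4. The groups overlapped, hBD-2 1 being the highest of all 8 mice and hBD-2 3 the lowest. The means were 6.91 ± 0.18 in hBD-2 mice and 6.96 ± 0.066 in PBS mice (SD, n = 4 each). The difference was -0.042 (SE 0.095) with a 95% interval of -0.25 to 0.17, which does not reach the size seen for Fcer1g, Fcgr4 or Fcgr3. Its sign turned when hBD-2 3 was left out (0.043), and again when hBD-2 1 was left out with it (0.0081).

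The inhibitory receptor gene Fcgr2b was lower in every hBD-2 mouse as well. It stood at 8.45, 8.94, 8.42 and 8.86 log2 units in hBD-2 mice 1 to 4, against 9.61, 9.55, 9.14 and 9.25 in PBS mice 1 to 4. The highest hBD-2 mouse, hBD-2 2, lay 0.20 below the lowest PBS mouse, PBS 3. The means were 8.67 ± 0.27 in hBD-2 mice and 9.39 ± 0.23 in PBS mice (SD, n = 4 each), a difference of -0.72 (SE 0.15) that did not pass (adjusted p = 0.123 by limma). The 2 arrays that stood apart were the lowest, and without them the difference was -0.49 (SE 0.14). Adjusted for the posterior colon score it was -0.47. The parts of Fcgr2b and Fcgr3 that bind IgG are close in sequence, and whether probes of one also read the other was not tested.

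Fcgrt, encoding FcRn, overlapped between the groups. It stood at 8.08, 8.75, 8.00 and 8.48 log2 units in hBD-2 mice 1 to 4, against 8.88, 8.94, 8.48 and 8.48 in PBS mice 1 to 4. Low values were those of hBD-2 1 and hBD-2 3, whereas hBD-2 2 and hBD-2 4 lay within the range of the PBS mice or at its lower edge. The means were 8.32 ± 0.35 in hBD-2 mice and 8.70 ± 0.25 in PBS mice (SD, n = 4 each), and the difference of -0.37 (SE 0.18, 95% interval -0.77 to 0.021) did not pass (adjusted p = 0.446 by limma). It shrank to -0.084 (SE 0.16) when hBD-2 1 and hBD-2 3 were left out, and to -0.075 once the posterior colon score entered as a covariate.

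Thus 4 of the 6 members had every hBD-2 mouse below every PBS mouse, a pattern found in 3.6% of all genes tested, and none had every hBD-2 mouse above, against 2.8% of all genes. These 4 were also the members with an unadjusted p under 0.05 in limma, which 5.98% of all genes had as lower and 5.85% as higher. Leaving out hBD-2 1 and hBD-2 3, the same 4 members had one, against 5.48% of all genes as lower and 7.35% as higher. Since Fcer1g and Fcgr4 were known to be low when the list was drawn up, these shares describe the family and do not test it.

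**Figure D2:**
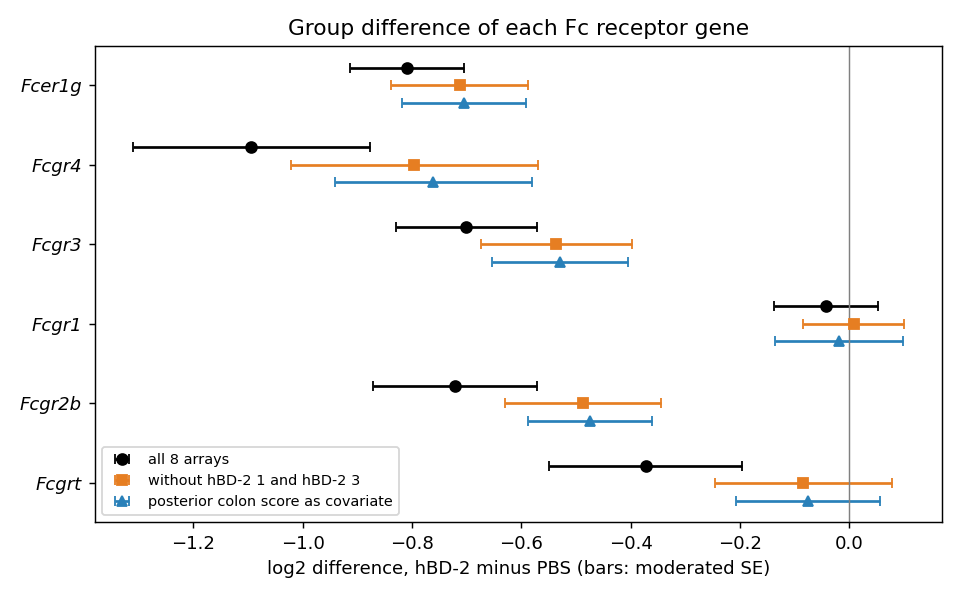
Log2 difference of each gene, hBD-2 minus PBS (points, bars are moderated SE), over all 8 arrays, over the 6 arrays other than hBD-2 1 and hBD-2 3, and with a covariate for posterior colon genes. Of the 4 genes with no overlap Fcer1g shifts by the smallest amount, from -0.81 to -0.71 and -0.70, while Fcgrt comes close to 0 in both alternatives, and Fcgr1 lies near 0 throughout.

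Whether members changed by unequal amounts was asked with 4 pairs, by taking in each mouse the difference of 2 genes, each relative to its own mean over the 8 arrays. A two-sided exact permutation test over the mice was used, whose smallest p with 4 against 4 is 0.0286, adjusted over the 4 pairs. With 2 pairs at that smallest p, as here, the adjusted p is 0.0571, so groups fully apart in both cannot pass. The pairs were drawn from members of which Fcer1g and Fcgr4 were already known to be low. For pairs that hold either of these, the p-values describe these arrays and are no independent test. Fcgr1 minus Fcgr2b was 0.71, 0.076, 0.33 and 0.23 in hBD-2 mice 1 to 4, against -0.61, -0.53, -0.12 and -0.11 in PBS mice 1 to 4. The activating Fcgr1 was thus higher relative to the inhibitory Fcgr2b in every hBD-2 mouse than in every PBS mouse. Fcgr1 itself did not rise (-0.042), so this mostly restates the fall of Fcgr2b (-0.72). Fcer1g, with which Fcgr1 pairs to signal, was at -0.81. The group difference was 0.68, with means of 0.34 ± 0.27 in hBD-2 mice and -0.34 ± 0.27 in PBS mice (SD, n = 4 each, exact permutation p = 0.0286, adjusted 0.0571), which did not pass after adjustment.

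Fcgr4 minus Fcgr2b went the other way by 0.37 (-0.19 ± 0.15 in hBD-2 mice and 0.19 ± 0.24 in PBS mice, SD, n = 4 each, exact permutation p = 0.0571, adjusted 0.0762), with hBD-2 4 at 0.036 inside the range of the PBS mice. Fcgr3 and Fcgr2b, an activating and the inhibitory gene, differed from each other by 0.021 between the groups (0.010 ± 0.11 in hBD-2 mice and -0.010 ± 0.13 in PBS mice, SD, n = 4 each, exact permutation p = 0.8, adjusted 0.8). Fcer1g minus Fcgrt changed by -0.44 (-0.22 ± 0.28 in hBD-2 mice and 0.22 ± 0.14 in PBS mice, SD, n = 4 each, exact permutation p = 0.0286, adjusted 0.0571). Its groups were separated only narrowly, by hBD-2 1 at 0.0020 and PBS 1 at 0.014.

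Markers of macrophages, the main cells that carry these receptors, had lower means as well. Of 10 listed markers 8 were measured and all 8 had a lower mean in the hBD-2 mice, with a median difference of -0.55, where that of all genes was 0.012 and 9077 of 19505 genes had a negative difference. None passed over all genes, 7 had an unadjusted p under 0.05, and none was near the bottom of the scale, the lowest single value being 6.38 log2 units for Adgre1. In the 6 mice other than hBD-2 1 and hBD-2 3 the median was -0.35, and 4 had an unadjusted p under 0.05. The mean level over the 8 markers ran from 7.70 to 8.02 log2 units in hBD-2 mice, against 8.24 to 8.58 in PBS mice, with no overlap. The mannose receptor gene Mrc1 was at -0.72 (SE 0.11) and the complement gene C1qa at -0.66 (SE 0.12). What part the macrophage markers have in the Fc receptor values was not tested.

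When the mean of the 8 markers was subtracted in each mouse, the group differences were -0.29 for Fcer1g, -0.57 for Fcgr4, -0.18 for Fcgr3, -0.20 for Fcgr2b, 0.48 for Fcgr1 and 0.15 for Fcgrt. The subtraction takes a member to shift by as much as the markers, and since the markers differ by 0.52, a gene that stays level, like Fcgr1, comes out higher by construction. A limma fit with the marker mean as a covariate, added after seeing the data, makes no such assumption, and there Fcer1g was at -0.39 (SE 0.15), Fcgr3 at -0.13, Fcgr4 at 0.034, Fcgr2b at 0.0040, Fcgr1 at 0.015 and Fcgrt at 0.50. The sign of Fcgr4 thus depended on which of these was used, and none of the 6 passed in that fit. As the marker mean does not overlap between the groups, it cannot be told apart from treatment there.

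**Figure D3:**
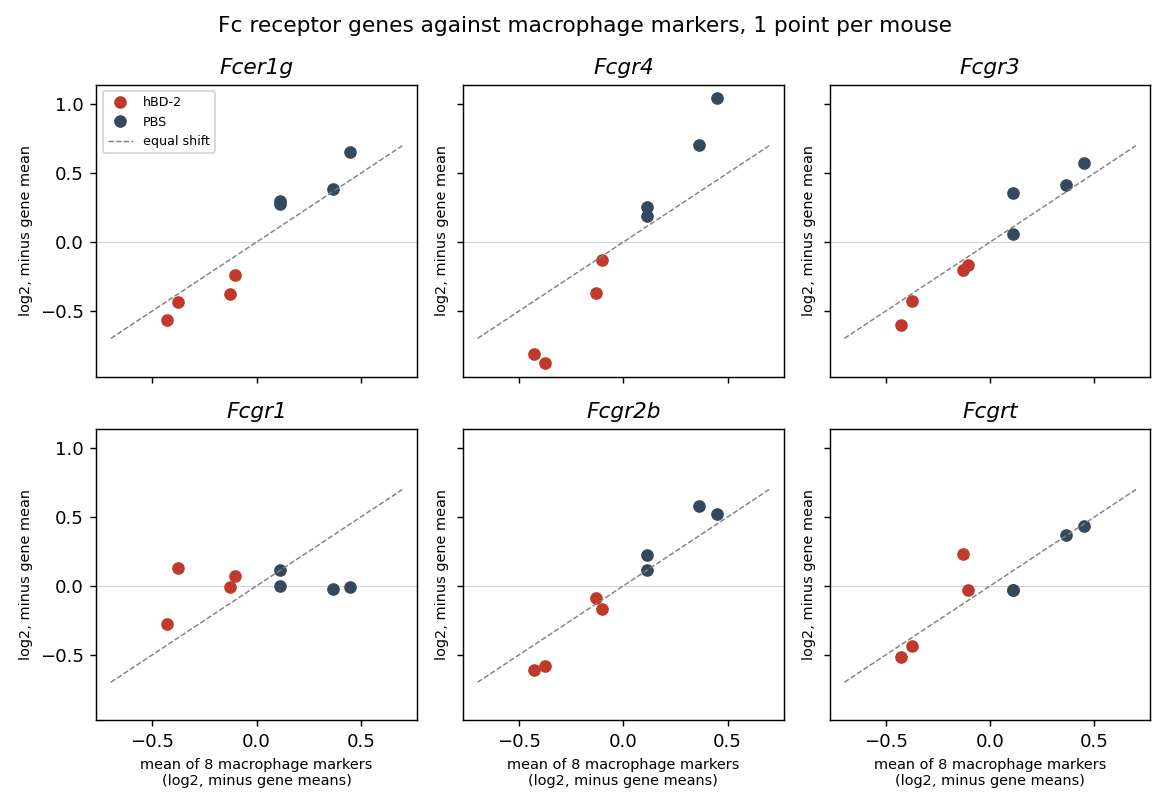
Each gene (vertical axis, log2 relative to its mean over the 8 arrays) against the mean of 8 macrophage markers (horizontal axis, same scale), 1 point per mouse, with a dashed line where both shift equally; PBS 3 and PBS 4 coincide in some panels. Fcgr2b and Fcgr3 lie near the line, Fcgr4 departs from it at both ends, and Fcgr1 varies little while the markers differ by 0.52 between the group means.

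Other cells that carry Fc receptors gave mixed values. The neutrophil markers had a median difference of -0.57 over 7 of 8 measured, but their mean level overlapped between hBD-2 mice (5.64 to 6.16) and PBS mice (5.78 to 6.72), with the calprotectin gene S100a9 at -0.74 (SE 0.21) and the receptor gene Csf3r at -0.26 (SE 0.22). The 7 monocyte markers had a median of -0.26, with Ly6c2 at -0.10 (SE 0.12) and Plac8 at 0.045 (SE 0.063). Of the 7, 5 had a negative difference, and 2 were lower and 0 higher at an unadjusted p under 0.05. These 2, named after their values were seen, were Itgam at -0.62 (SE 0.16) and Vcan at -0.32 (SE 0.13). Mast cell markers (8 of 8 measured) stood at 0.073, with the tryptase gene Tpsb2 at 0.22 and the receptor gene Kit at -0.18. Natural killer markers (6 of 7) stood at -0.099, B cell markers (5 of 6) at 0.17 and dendritic cell markers (7 of 7) at -0.0053. In the last list Itgax, which macrophages share, was at -0.73 and Zbtb46, a factor of conventional dendritic cells, at -0.023. The mean level per array was at most 4.63 log2 units for B cell markers and 5.42 for dendritic cell markers. For mast cell markers it was at most 5.36, and for natural killer markers 5.92. These lists were thus dim on average, below the array medians, and their medians rest in part on weak signal. When hBD-2 1 and hBD-2 3 were left out, the neutrophil median was -0.29, with 1 gene in place of 4 lower at an unadjusted p under 0.05 and Csf3r at -0.025, and Zbtb46 turned to 0.23. The monocyte median was then -0.28, with 3 genes lower and 0 higher at an unadjusted p under 0.05, Itgam at -0.29 and Vcan at -0.18. The dendritic cell median was then 0.18, that of natural killer cells -0.20, and those of mast cells and B cells 0.15 and 0.24. No marker of these 6 lists passed over all genes, and their part in the Fc receptor values was not tested.

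Of the cells that do not signal through Fcer1g, the 7 T cell markers had a median of -0.30, with Cd4 at -0.61 (SE 0.11) and Cd3e at -0.16 (SE 0.17). The T cell values were more negative when hBD-2 1 and hBD-2 3 were left out, with a median of -0.47, 6 in place of 3 genes lower at an unadjusted p under 0.05, and Cd3e at -0.43. Endothelial markers, from cells that make FcRn, had a median of -0.35 over 6, with Pecam1 at -0.43 and Kdr at -0.36. Fibroblast markers had a median of -0.51 over 5 of 6, with Col3a1 at -0.52 and Dcn at -0.32. These were smaller when the same 2 mice were left out, the median being -0.30 and Dcn at -0.12. The 6 epithelial markers had a median of 0.024, with the keratin gene Krt8 at 0.012 and the cadherin gene Cdh1 at 0.041, and the 8 markers of colon epithelium one of 0.096. No gene of these lists passed.

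Fcgr2b, Fcgr4 and Fcgr3 follow each other on mouse chromosome 1, with Fcer1g some genes further on. The protein-coding genes between them, and up to 5 on either side, were measured for 13 neighbours. Their differences ran from -0.38 to 0.32, and 0 of the 13 had all hBD-2 mice below all PBS mice. Of all genes tested 3.6% had that pattern, and with so few neighbours 0 cannot be told apart from that share. In limma 1 of the 13 had an unadjusted p under 0.05. This was Sdhc, named after its values were seen, which was higher at 0.29 (SE 0.085), as were 5.85% of all genes. The 2 measured genes nearest to Fcgr2b on its other side, the Fc receptor-like genes Fcrla and Fcrlb, named after their values were seen, were at 0.15 (SE 0.084) and -0.039 (SE 0.078). Fcgr1 and Fcgrt lie on chromosomes 3 and 7.

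**Figure D4:**
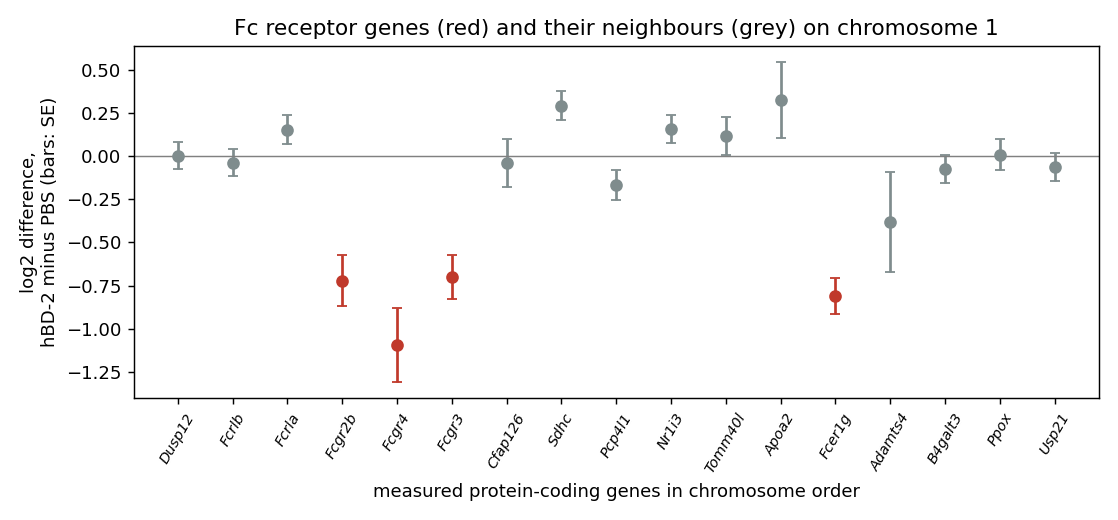
Log2 difference, hBD-2 minus PBS (points, bars are SE), of the measured protein-coding genes around the Fc receptor cluster in their order along chromosome 1, with equal spacing. The 4 Fc receptor genes in red lie at -1.09 to -0.70, while the 13 neighbours in grey lie at -0.38 to 0.32.

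Genes around the receptors were read from 10 lists, with 121 measured genes apart from the members. The lists also hold T and B cell receptor chains, other Fc receptors and transcription factors, not all of which act with the members. In limma 0 of the 121 passed over all genes. Their counts at an unadjusted p under 0.05 stand beside 5.98% lower and 5.85% higher among all genes. Counts of negative differences stand beside 9077 of all 19505 genes. Of the 26 measured genes of ITAM signalling, 18 had a negative difference and 6 of these an unadjusted p under 0.05, against 0 higher, with a list median of -0.093. The adaptor gene Lcp2 (SLP-76) was at -0.66 (SE 0.14), the Ras activator gene Rasgrp1 at -0.38 (SE 0.082) and Pik3ap1, an adaptor for phosphoinositide 3-kinase, at -0.47 (SE 0.11), each with no overlap between the groups. Syk itself, named here after its values were seen, was at 0.091 (SE 0.072). Leaving out hBD-2 1 and hBD-2 3 gave -0.82 for Lcp2, -0.43 for Rasgrp1, -0.40 for Pik3ap1 and 0.011 for Syk. Which cells these values came from was not tested.

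Of the 13 genes of ITIM signalling and docking, 4 were lower and 0 higher at an unadjusted p under 0.05, and the median was -0.12. Inpp5d, encoding the lipid phosphatase SHIP1 that acts for Fcgr2b, was at -0.29 (SE 0.078), the phosphatase gene Ptpn6 (SHP-1) at -0.29 (SE 0.075) and the docking protein gene Dok2 at -0.29 (SE 0.11). In the first 2 of these the groups did not overlap, while Dok2 was at -0.13 when hBD-2 1 and hBD-2 3 were left out.

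Other signalling chains had smaller differences than Fcer1g. Tyrobp (DAP12), the ITAM adaptor of TREM and related receptors, was at -0.29 (SE 0.097), the T cell receptor chain Cd3d at -0.30 (SE 0.13) and the B cell receptor chain Cd79b at 0.22 (SE 0.073). The median over the 9 genes of that list was -0.11. Among 12 other receptors that use Fcer1g, the C-type lectin gene Clec4n (dectin-2) was at -0.72 (SE 0.19), with Clec4d at -0.42 (SE 0.24) and the natural killer receptor gene Klrb1c at -0.17 (SE 0.078). The list median was -0.075, and 1 gene was lower and 0 higher at an unadjusted p under 0.05. In the 6 mice other than hBD-2 1 and hBD-2 3 that median turned to 0.016, with Clec4n at -0.43 and Clec4d at -0.063. For the signalling chains the median was then -0.15, with 3 genes lower and 3 higher at an unadjusted p under 0.05 in limma. Tyrobp was then at -0.17 and Cd3d at -0.47. Cd3g, named after its values were seen, was at -0.82 in these 6 mice, a larger fall than that of Fcer1g (-0.71). Over all 8 mice Cd3g was at -0.38 (SE 0.23). Cd79b (at most 4.13 log2 units) and Klrb1c (at most 3.97) lay far below the array medians.

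Of 12 other Fc receptors and Fc-binding proteins, 5 had a negative difference, among them Trim21, named after its values were seen, at -0.35. At the other end 4 were higher and 0 lower at an unadjusted p under 0.05, with a median of 0.14, though none passed. Fcamr, encoding the receptor for IgA and IgM, was at 0.40 (SE 0.075, adjusted p = 0.0902 by limma), with 6.17 ± 0.078 log2 units in hBD-2 mice and 5.77 ± 0.082 in PBS mice (SD, n = 4 each). Fcmr, encoding the IgM receptor, was at 0.28 (SE 0.086) and Fcrls at 0.15 (SE 0.062). In all 3 every hBD-2 mouse lay above every PBS mouse, though at levels below the array medians. The other higher gene was the bright Pigr, named after its values were seen, at 0.36 (SE 0.16) with overlap between the groups. In the 6 mice other than hBD-2 1 and hBD-2 3 the list median was 0.055, with 2 genes higher and 1 lower at an unadjusted p under 0.05. Fcamr then stood at 0.38, Fcmr at 0.35, Fcrls at 0.16 and Pigr at 0.070.

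No gene of the machinery that follows receptor binding passed. All 19 measured genes of phagocytic actin and vesicle traffic had a negative difference, with a median of -0.063 and 4 at an unadjusted p under 0.05. Several were close to 0, such as Rab5a at -0.008 (SE 0.072) and Arpc2 at -0.012 (SE 0.064), both named after their values were seen. In the 6 mice other than hBD-2 1 and hBD-2 3 the median was -0.092, with 6 genes lower at an unadjusted p under 0.05. Not all were negative there, with Arpc2 at 0.015 and Wasf2, also named after its values were seen, at 0.010. The actin-bundling gene Lcp1 was at -0.25 (SE 0.081), and the leukocyte myosin genes Myo1f and Myo1g were at -0.23 (SE 0.086) and -0.30 (SE 0.13). Of 6 genes of the phagocyte NADPH oxidase, the catalytic subunit gene Cybb was at -0.66 (SE 0.17), the proton channel gene Hvcn1 at -0.41 (SE 0.11) and Ncf1 at -0.26 (SE 0.12), and the median was -0.27. Of these 6 genes 2 were lower at an unadjusted p under 0.05 over all mice. When hBD-2 1 and hBD-2 3 were left out it was 4, with a list median of -0.36, although Cybb was then at -0.41.

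Of 14 transcription factors of myeloid cells and interferon signalling, 5 were lower and 0 higher at an unadjusted p under 0.05, with a median of -0.071. Spi1, which encodes PU.1, was at -0.66 (SE 0.10, adjusted p = 0.0634 by limma). It stood at 9.75 ± 0.19 log2 units in hBD-2 mice and 10.4 ± 0.12 in PBS mice (SD, n = 4 each), with no overlap. Mitf was at -0.52 (SE 0.13) and the liver X receptor gene Nr1h3 at -0.38 (SE 0.095). Irf1, an interferon-gamma response factor named after its values were seen, was at -0.051 (SE 0.082).

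Immunoglobulin genes and the partners of FcRn gave differences on either side of 0. Of 14 listed immunoglobulin and plasma cell genes 5 were measured, none of them a heavy chain of IgG, and 0 had an unadjusted p under 0.05 in limma. The joining chain gene Jchain was at -0.38 (SE 0.48), Mzb1 at -0.21 (SE 0.13) and Irf4 at 0.11 (SE 0.12). B2m, which encodes the beta-2-microglobulin that pairs with FcRn, was at -0.028 (SE 0.063, 95% interval -0.17 to 0.11). The recycling genes Rab11a and Myo5b were at -0.038 (SE 0.080) and -0.042 (SE 0.082), and the median over the 6 genes of the FcRn list was -0.0060.

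**Figure D5:**
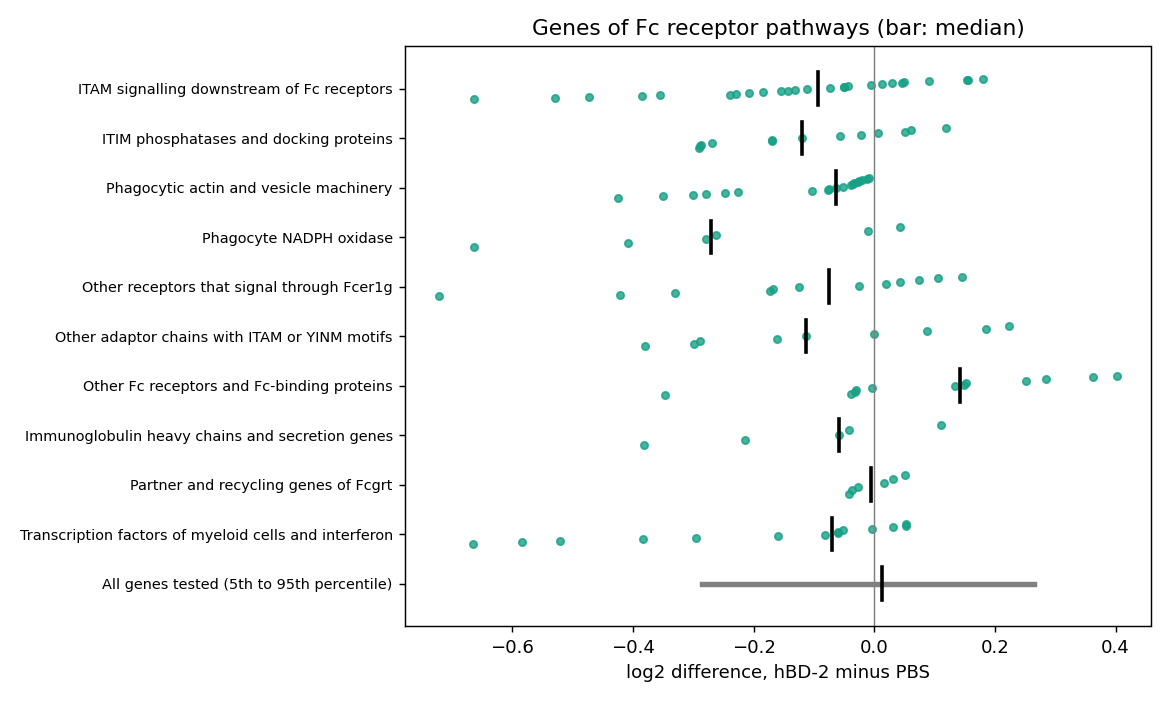
Log2 difference, hBD-2 minus PBS, of each measured gene (points) in the 10 lists, with the list median as a vertical bar and, at the bottom, the median and the 5th to 95th percentile of all genes tested. Medians lie between -0.27 for the NADPH oxidase list and 0.14 for other Fc receptors, against 0.012 for all genes.

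The genes whose pattern over the 8 arrays was most like that of Fcer1g were sought by the root mean square difference between log2 profiles, each relative to the gene's own mean. A small value means a like pattern, the arrays and the group difference are shared by all genes compared, and no test was made. For Fcer1g they were Mpeg1 (0.0947 log2 units), which encodes the pore-forming protein perforin-2 of macrophages, the TNF-induced gene Tnfaip2 (0.0964), C1qa (0.0979), Fcgr3 (0.109) and the scavenger receptor gene Msr1 (0.128). Fcgr2b stood at 0.160, Fcgr4 at 0.258, Fcgrt at 0.291 and Fcgr1 at 0.412. For Fcgr4 the nearest were the phospholipase gene Pla2g7 (0.188), the endosomal RNA sensor gene Tlr7 (0.194), the matrix gene Npnt (0.196), the cytokine gene Il1b (0.219) and the collagen hydroxylase gene P3h2 (0.224). For Fcgrt they were the matrix gene Dcn (0.0827), one of the fibroblast markers, the potassium channel gene Kcnj8 (0.0886) and the matrix protease gene Mmp2 (0.0899).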

How the data were processed

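RNA from the whole colon of 8 mice was amplified and labelled with biotin by the Affymetrix WT Pico kit and measured on Affymetrix arrays, 1 per mouse, and groups and replicate numbers were taken from the sample titles. The deposited table holds log2 expression for 22203 probe sets. Per the submitters' processing notes it was made with oligo and RMA. RMA corrects background, gives every array the same distribution (quantile normalization) and combines the probes of a set, so that a shift of all genes would not be seen. Levels of different genes are set against each other only to pick the named markers and to see which genes are dim. Versions and the genome build of the array design are not given in the sources used here.

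The platform annotation, which can be old, named 1 gene for 19572 probe sets, several for 0 and none for 2631, which were left out. All 19572 matched the gene table of GRCm38.p6 by gene identifier. For 55 genes with several probe sets the one whose mean level was highest was kept, leaving 19505 genes. Differences were tested two-sided in limma 3.58.1 (R 4.3.3; lmFit, then eBayes), with Benjamini-Hochberg adjustment over all 19505 genes and a threshold of 0.05. The labels name no test and do not say that the mice were handled separately, so p-values measure the spread between these 8 arrays. The pipeline was tested on simulated data.

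The members, the lists, the alternatives and the naming rule were chosen with earlier results of these data known. The rule named the members, the 3 genes with the lowest p in each pathway list, the 2 markers with the highest mean in each cell type list, and the nearest patterns of Fcer1g, Fcgr4 and Fcgrt. Lists are described by counts and medians without a set test. The alternatives were another prior, filters on dim genes, other normalizations, array weights, a replicate block, arrays left out and covariates. A search of the member proteins for signalling motifs was not made, as no protein sequences were used here.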

Additional observations from a re-analysis of the deposited data

Results flagged for a closer look

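In a group of 4 mice, 1 mouse was marked when its gap to the nearest of the others, divided by the range of the group, was above Dixon's 95% critical value. Of 144 groups (72 genes in either treatment) 7 were marked, where chance marks about 5%. The only family member among them was Fcgr1, which in PBS 4 stood at 7.05 log2 units, against 6.91 to 6.93 in the other PBS mice. Among hBD-2 mice, hBD-2 2 stood at 9.67 for Mrc1, against 9.27 to 9.33 in the other hBD-2 mice, and at 5.32 for Klrk1, against 5.66 to 5.72. Among PBS mice, Jchain stood at 6.93 in PBS 4, against 9.12 to 9.54, and Cd3e at 7.98 in PBS 1, against 8.36 to 8.43. In PBS 3, Myo5b stood at 8.18, against 7.92 to 7.94, and Kdr at 7.37, against 7.59 to 7.63.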

How the results depend on the processing

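Over all genes, 8 passed the threshold, all of them lower. The count was 91 (85 lower) with an intensity trend and robust prior, 16 (15 lower) and 47 (46 lower) with the lowest 25% and 50% of genes left out, 68 (59 lower) with array weights and 81 (69 lower) at a threshold of 0.1. It was 4, all lower, with quantile normalization repeated, 5 (1 lower) with the macrophage marker score as a covariate, and 0 when hBD-2 1 and hBD-2 3 were both left out (2503 at an unadjusted p under 0.05 by limma). With 1 array left out it ran from 0 to 11. Fcer1g was at -0.78 (limma adjusted p = 0.0539) with quantile normalization repeated, -0.71 without hBD-2 1 and hBD-2 3, -0.70 (0.0776) with the posterior colon score, and -0.39 (0.568) with the macrophage score. That score does not overlap between the groups, so score and treatment cannot be told apart there, and the fit was added after seeing the data. In it Fcgr1 was at 0.015, Fcgr2b at 0.0040, Fcgr3 at -0.13, Fcgr4 at 0.034 and Fcgrt at 0.50. Over all its settings Fcer1g passed in 7 of 19, with adjusted p up to 0.568. Fcgr3 passed with the trend and robust prior (-0.70, limma adjusted p = 0.0433) and with array weights (-0.75, 0.0489), and Fcgr4 with array weights (-1.24, 0.0483). Without hBD-2 1 and hBD-2 3, Fcgr1 was at 0.0081 and Fcgr3 minus Fcgr2b at -0.050. The causes were not tested, except that filters leave fewer genes tested and left-out arrays fewer samples. With single arrays left out Fcer1g ran from -0.86 to -0.72, Fcgr1 from -0.094 to 0.043, Fcgr2b from -0.81 to -0.64, Fcgr3 from -0.80 to -0.62, Fcgr4 from -1.23 to -0.93 and Fcgrt from -0.51 to -0.26. Likewise Fcgr1 minus Fcgr2b ran from 0.55 to 0.77, Fcgr4 minus Fcgr2b from -0.45 to -0.26, Fcgr3 minus Fcgr2b from -0.033 to 0.068 and Fcer1g minus Fcgrt from -0.51 to -0.31. The labels do not say whether mice of the same number share more than that number. The correlation of their deviations ran from -0.152 to 0.244 and 1 of 4 numbers matched itself best, which is too little to decide it. The SE of Fcgr3 was 0.084 with a replicate block, against 0.129 without. With the replicate block 0 genes passed (2566 at an unadjusted p under 0.05 by limma) and Fcer1g was at -0.81 (0.0910), while for the pairs of genes the smallest p it allows is 0.125.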
